A study of Mus musculus with 6 samples.

Results

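The genes described here are 38 regulators and machines of the cell division cycle, measured in the livers of mice treated with source water or distilled water. They were taken as a list of gene symbols, and a gene's value came from the probe sets of the array that carry that symbol alone. Of the 38 listed genes, 37 had such a probe set, out of 12393 genes represented on the array. The expression of Ccnb1 was not analysed here, and it enters the promoter counts alone. By role, 9 of the measured genes control the passage from G1 into S phase, 13 act in DNA replication or supply its nucleotides, and 15 act in mitosis or are switched on shortly before it.

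Liver RNA came from male C57BL/6J mice. The control group was treated with distilled water and the other group with drinking source water, called source water below, for 90 d. Each group held 10 mice, and the livers of 9 were homogenised in pools of 3 mice, so that each group had 3 RNA pools and 3 arrays. The labels used here state no age. A replicate is a pool of 3 mice, which averages over animals, and a high value in 1 pool cannot be assigned to 1 or several of its mice. The p-values below measure only the spread between pools.

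To divide, a cell passes from G1 into S phase under D-type and E-type cyclins and their kinases, which release the E2F transcription factors from the retinoblastoma family. Licensed origins, each loaded with the MCM helicase, then fire once, and geminin prevents a second round of licensing until mitosis is over. Mitosis is driven by cyclin B with the kinase Cdk1 and by the Aurora and Polo-like kinases, and it is timed by the spindle checkpoint and the anaphase-promoting complex. Most hepatocytes of the adult liver are quiescent, but they can re-enter the cycle after loss of tissue, and non-parenchymal and blood-derived cells of the organ may divide as well.

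All values are log2 signals of probe sets. Array medians lay between 5.79 and 5.856, and the correlation of any array with another was 0.9854 to 0.9935. The lower quartile of the signals ran from 4.33 on the array of source water replicate 3 to 4.5 on that of control replicate 2. Hepatocyte markers marked the tissue as labelled: 9 of 10 were measured, and Alb, the albumin gene, had a signal of 14.88 to 14.95 on the 6 arrays. Of the 37 cell cycle genes, 22 had a mean below the median of all probe sets (5.83), 10 of them among the 15 mitotic genes, and differences of such dim probe sets tend to be understated.

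No cell cycle gene passed the limma test after Benjamini-Hochberg adjustment over all 22626 probe sets, where 9 probe sets (0.0398%) passed at an adjusted p under 0.05 and 6.02% had an unadjusted p under 0.05. The smallest adjusted p among the 37 genes was that of Mad2l2, at 0.0972. It was 0.0497 when quantile normalization was repeated, 0.127 with the replicate number as a block, 0.148 to 0.353 with an array left out and 0.546 by the unmoderated statistic. Without adjustment, 5 of the 37 genes had a limma p under 0.05, against 6.76% of all genes. Of these, 4 were higher in source water (4.16% of all genes), namely Ccnd1, Mcm7, Mcm5 and Mad2l2, and 1, Gmnn, was lower (2.6% of all genes). The unmoderated statistic gave 3 genes. The arrays of the 2 groups did not overlap for 7 of the 37 genes, against 11.5% of all genes: 6 were higher (6.51% of all genes) and 1 was lower (5.03% of all genes). The differences were spread around a small positive value, with 25 genes higher (67.6%, against 49.5% of all genes) and 12 lower and a median log2 difference of 0.11, beside -0.0016 over all genes. Without source water replicate 3 the median of the 37 genes was 0.0625. By role the median was 0.0682 for the G1/S genes, 0.14 for the replication genes and 0.11 for the mitotic genes. Over the 4 replication genes at or above the median level of all probe sets it was -0.0512. The differences of the 3 role groups overlapped, from -0.20 to 0.62, from -0.55 to 0.38 and from -0.05 to 0.81, and no test was made between them.

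**Figure D1:**
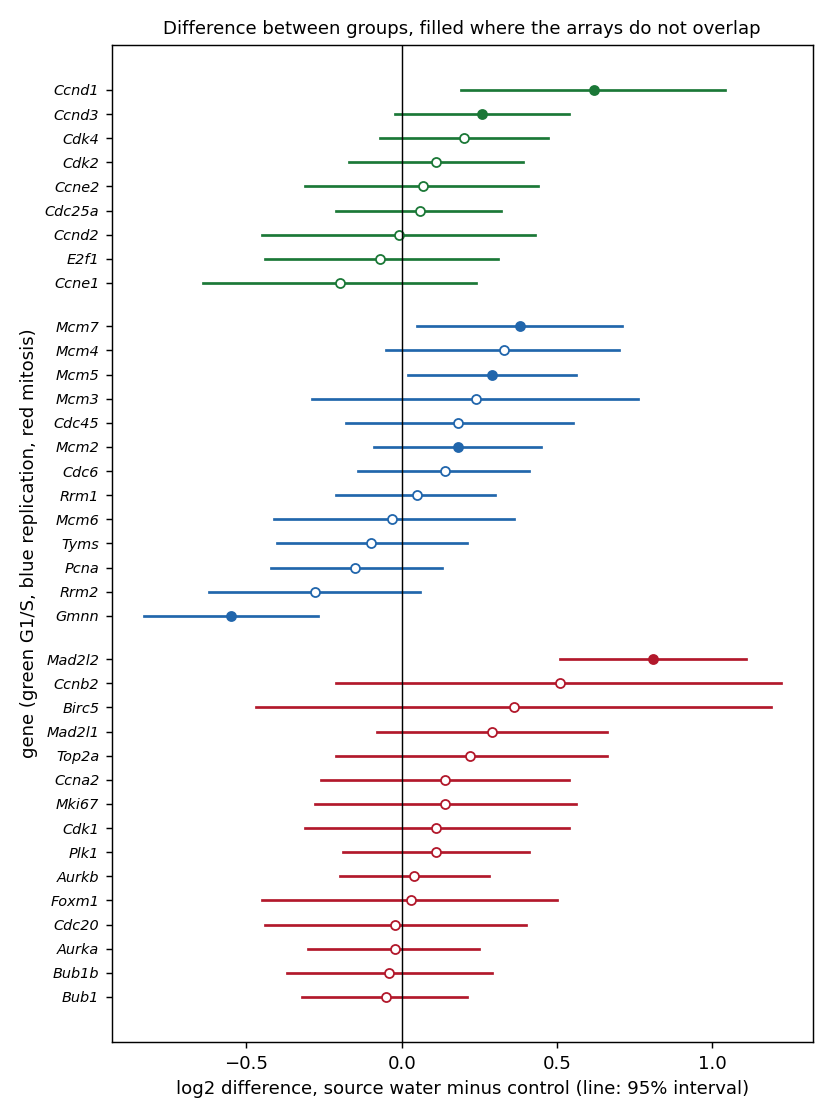
Log2 difference of each of the 37 genes, source water minus control, with its 95% interval from limma (3 arrays per group), ordered within G1/S genes (green), replication genes (blue) and mitotic genes (red). Filled points mark the 7 genes whose arrays did not overlap between groups; Mad2l2 at 0.81 is the highest and Gmnn at -0.55 the lowest.

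Among the G1/S genes, the D-type cyclins differed from one another. Ccnd1 encodes cyclin D1, which activates Cdk4 in response to growth signals. Its signal was 7.42, 7.24 and 7.39 in the control pools and 7.61, 7.93 and 8.37 in the source water pools. Every source water pool lay above every control pool, and the pools of the source water group were farther apart than those of the control. The mean went from 7.35 ± 0.09 to 7.97 ± 0.38 (SD, n = 3), a difference of 0.62 ± 0.18 (SE; limma adjusted p = 0.523). Its other probe sets differed by 0.50 and 0.30 and did overlap between groups. Without source water replicate 3 the difference was 0.42. Ccnd3, which encodes the related cyclin D3, was at 7.87, 7.75 and 7.72 in control and at 8.23, 7.98 and 7.91 in source water. The groups were separated by a narrow margin, and the difference was 0.26 ± 0.12 (SE; limma adjusted p = 0.877). Ccnd2, the cyclin D2 gene, was at 6.49, 7.0 and 7.27 in control and at 7.06, 6.82 and 6.85 in source water. It had the smallest difference of the G1/S genes, -0.01 with a 95% interval of -0.45 to 0.43, and its 7 probe sets differed by -0.01 to 0.22.

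The partners of these cyclins differed little by their brightest probe sets. Cdk4, the kinase that D-type cyclins activate, had a difference of 0.20 ± 0.12 (SE), and its 3 probe sets were all higher, by 0.17 to 0.42. Cdk2, the kinase of E-type cyclins, had a difference of 0.11 with a 95% interval of -0.17 to 0.39. The cyclin E genes went opposite ways, Ccne1 by -0.20 (95% interval -0.64 to 0.24) and Ccne2 by 0.07 (-0.31 to 0.44). Cdc25a, a phosphatase that activates Cdk2, and E2f1, which encodes a transcription factor that switches on S phase genes, differed by 0.06 and -0.07, and both had a signal below the median of all probe sets. The dimmer probe set of Cdc25a went the other way, by -0.28 (95% interval -0.58 to 0.03).

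Among the replication genes, the geminin gene was lower in source water and most helicase genes were higher. Gmnn encodes geminin, which binds the loading factor Cdt1 and so blocks the licensing of origins in S and G2 phase. Its signal was 8.46, 8.55 and 8.43 in control and 7.76, 7.91 and 8.12 in source water. The control pools lay close together, and every source water pool was below them. The mean went from 8.48 ± 0.07 to 7.93 ± 0.18 (SD, n = 3), a difference of -0.55 ± 0.12 (SE; limma adjusted p = 0.259), with a 95% interval of -0.83 to -0.27. A single probe set represents Gmnn, and its difference lay between -0.64 and -0.47 when each array was left out in turn.

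The genes Mcm2 to Mcm7 encode the 6 subunits of the replicative helicase. Of their 16 probe sets, 13 were higher in source water, beside 51 of the 73 probe sets of all 37 genes. Mcm3 has 5 of these 16 and Mcm7 has 4, so they are not independent. Mcm7 was at 7.78, 7.48 and 7.85 in control and at 8.10, 7.89 and 8.26 in source water. The groups did not overlap, though control replicate 3 and source water replicate 2 nearly met. The difference was 0.38 ± 0.14 (SE; limma adjusted p = 0.71), and the 4 probe sets of Mcm7 differed by 0.24 to 0.46. In the probe set that differed by 0.24 the groups did overlap. Mcm5 was at 3.72, 3.73 and 3.88 in control and at 4.05, 3.93 and 4.22 in source water. Its groups did not overlap, at a signal close to the lower end of the array. The difference was 0.29 ± 0.12 (SE; limma adjusted p = 0.76). Mcm2 was at 5.54, 5.70 and 5.67 in control and at 5.72, 5.73 and 6.00 in source water, and its difference of 0.18 had a 95% interval of -0.09 to 0.45 and was 0.09 without source water replicate 3. Its other probe set differed by 0.06 with overlapping groups. Without source water replicate 3 the p of Mcm7 was 0.0944 and that of Mcm5 0.121 (limma, unadjusted). The remaining subunits overlapped between groups. Mcm4 differed by 0.33 ± 0.16 (SE), and by 0.15 without source water replicate 3, the pool in which it was highest (5.68 against 4.89 to 5.21). Mcm3 differed by 0.24 with a wide 95% interval of -0.29 to 0.76, and its other probe sets differed by -0.05 to 0.15. Mcm6 had the smallest difference of the replication genes, with 5.54, 5.96 and 5.94 in control and 5.52, 5.83 and 6.00 in source water, -0.03 with a 95% interval of -0.41 to 0.36. This difference was -0.14 without source water replicate 3, and the other Mcm6 probe set differed by 0.19 over all arrays.

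Other replication genes showed no common direction. Pcna, the sliding clamp of the DNA polymerases, was at 10.05, 9.95 and 10.21 in control and at 9.81, 9.89 and 10.06 in source water, and its difference of -0.15 had a 95% interval of -0.42 to 0.13. The helicase activator Cdc45 and the loading factor Cdc6 differed by 0.18 and 0.14. Rrm1 and Rrm2 encode the subunits of ribonucleotide reductase, which makes deoxyribonucleotides. Rrm1 differed by 0.05, and Rrm2 by -0.28 ± 0.15 (SE; limma adjusted p = 0.933), a difference that was -0.41 without source water replicate 3. The other probe sets of Rrm2 differed by -0.10 and -0.03. Tyms, which encodes thymidylate synthase, differed by -0.10 with a 95% interval of -0.40 to 0.21.

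**Figure D2:**
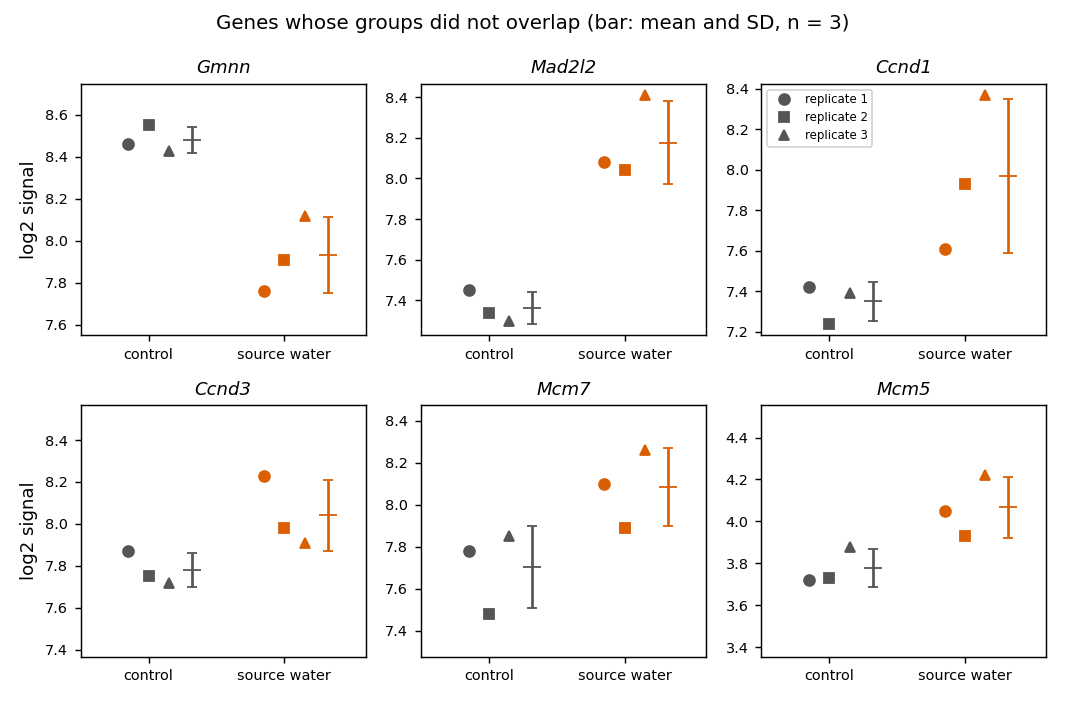
Log2 signal of 6 genes in each array, control in grey and source water in orange, with the mean and SD (n = 3) beside the points; the vertical scales differ between panels. In all panels the groups do not overlap, with Gmnn lower in source water (7.76 to 8.12 against 8.43 to 8.55) and the other genes higher.

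Of the mitotic genes, Mad2l2 was the only one with a limma p under 0.05 and the only one whose groups did not overlap. Mad2l2 encodes MAD2B, also called REV7, which can inhibit the anaphase-promoting complex and is also a subunit of the translesion DNA polymerase zeta and of the shieldin complex of DNA break repair. Its signal was 7.45, 7.34 and 7.30 in control and 8.08, 8.04 and 8.41 in source water. The gap between the groups was wider than the range within either of them. The mean went from 7.37 ± 0.08 to 8.18 ± 0.20 (SD, n = 3), a difference of 0.81 ± 0.13 (SE), or 1.75-fold (limma adjusted p = 0.0972). The difference was 0.69 to 0.88 when each array was left out in turn. Mad2l1, which encodes the spindle checkpoint protein MAD2, differed by 0.29 ± 0.16 (SE) with overlapping groups, and by 0.15 without source water replicate 3.

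Common proliferation markers did not separate the groups. Mki67, whose product Ki-67 is present in all cycling cells, was at 4.14, 4.11 and 4.11 in control and at 3.88, 4.25 and 4.65 in source water. The source water pools lay on both sides of the control pools, and the difference of 0.14 had a 95% interval of -0.28 to 0.56. Top2a, which encodes the topoisomerase that untangles chromosomes, was at 4.65, 5.20 and 4.47 in control and at 4.96, 5.14 and 4.88 in source water, with a 95% interval of -0.21 to 0.66 around 0.22. Cdc20, an activator of the anaphase-promoting complex, had the smallest representative difference of the mitotic genes, with 6.75, 7.31 and 6.89 in control and 7.01, 7.19 and 6.69 in source water, -0.02 with a 95% interval of -0.44 to 0.40. The checkpoint kinase genes Bub1 and Bub1b and the Aurora kinase genes Aurka and Aurkb differed by -0.05 to 0.04, and Plk1, the Polo-like kinase gene, by 0.11. All 5 were below the median of all probe sets, so a difference in them may not have been detectable. Foxm1, which encodes a transcription factor for mitotic genes, differed by 0.03 with a 95% interval of -0.45 to 0.50.

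Source water replicate 3 stood apart from the other arrays in a subset of the mitotic genes. Ccnb2, which encodes cyclin B2, an activator of Cdk1, was at 3.91, 3.85 and 3.88 in control and at 3.86, 4.09 and 5.22 in source water. The first source water pools were at the level of the controls, and the last was 1.13 above the next highest array. Birc5, which encodes survivin, a subunit of the chromosomal passenger complex, was at 4.07, 4.16 and 4.10 in control and at 4.05, 3.89 and 5.45 in source water. It thus showed the same arrangement, with a gap of 1.30. As group comparisons, both were inconclusive, with differences of 0.51 ± 0.31 and 0.36 ± 0.36 (SE), which became 0.09 and -0.14 without that pool. This pattern and the gap of 0.5 used below were chosen after the values were seen.

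Of all genes, 0.508% were higher in source water replicate 3 than in every other array by at least 0.5 on the log2 scale. By the representative probe set, 2 of the 15 mitotic genes were, Ccnb2 and Birc5, and 0 of the G1/S and replication genes. Just under that limit lay the replication gene Mcm4, with a gap of 0.47, and the G1/S gene Ccnd1, with 0.44. Dimmer probe sets of replication genes exceeded it, with gaps of 0.67 for Mcm4 and 0.52 for Mcm6, and a dimmer one of Ccnd1 had 0.50. The gap was thus not particular to mitotic genes. Smaller gaps in the same direction were seen for the mitotic genes Ccna2 (cyclin A2, 4.90 against 4.22 to 4.48), Mki67 (4.65 against 3.88 to 4.25), Cdk1 (the mitotic kinase, 6.43 against 5.65 to 6.07) and Mad2l1 (6.35 against 5.55 to 5.97). The other probe set of Ccna2 had a gap of only 0.07 in source water replicate 3. The pool was the highest of the 6 arrays for 17 of the 37 genes, 7 of 15 mitotic, 7 of 13 replication and 3 of 9 G1/S genes, against 19.1% of all genes. Control replicate 2 was the highest array for 11 of the 37 genes, against 26.6% of all genes. The mean deviation of source water replicate 3 from the 6-array mean was 0.262 over the mitotic genes, 0.148 over the replication genes and 0.006 over all genes. The other mitotic means lay between -0.16 in control replicate 1 and 0.047 in source water replicate 2. The median deviation of source water replicate 3 was 0.104 over the mitotic genes, 0.136 over the replication genes and -0.006 over all genes. By the median, the mitotic genes were thus not raised more than the replication genes. Not every mitotic gene took part: Foxm1 had its lowest signal in that pool, 5.63 against 5.84 to 6.43, and so had Bub1b, 3.83 against 3.94 to 4.29. Aurka, Aurkb, Bub1 and Plk1 showed no gap there. Nor did the representative probe set of Top2a, at 4.88, while its dimmer one had a gap of 0.42. Probe sets of 1 gene did not always behave alike, since a dimmer probe set of Cdc20 was at 5.30 in that pool against 4.06 to 4.40 elsewhere, while the representative probe set was at 6.69, the lowest of its 6 arrays.

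**Figure D3:**
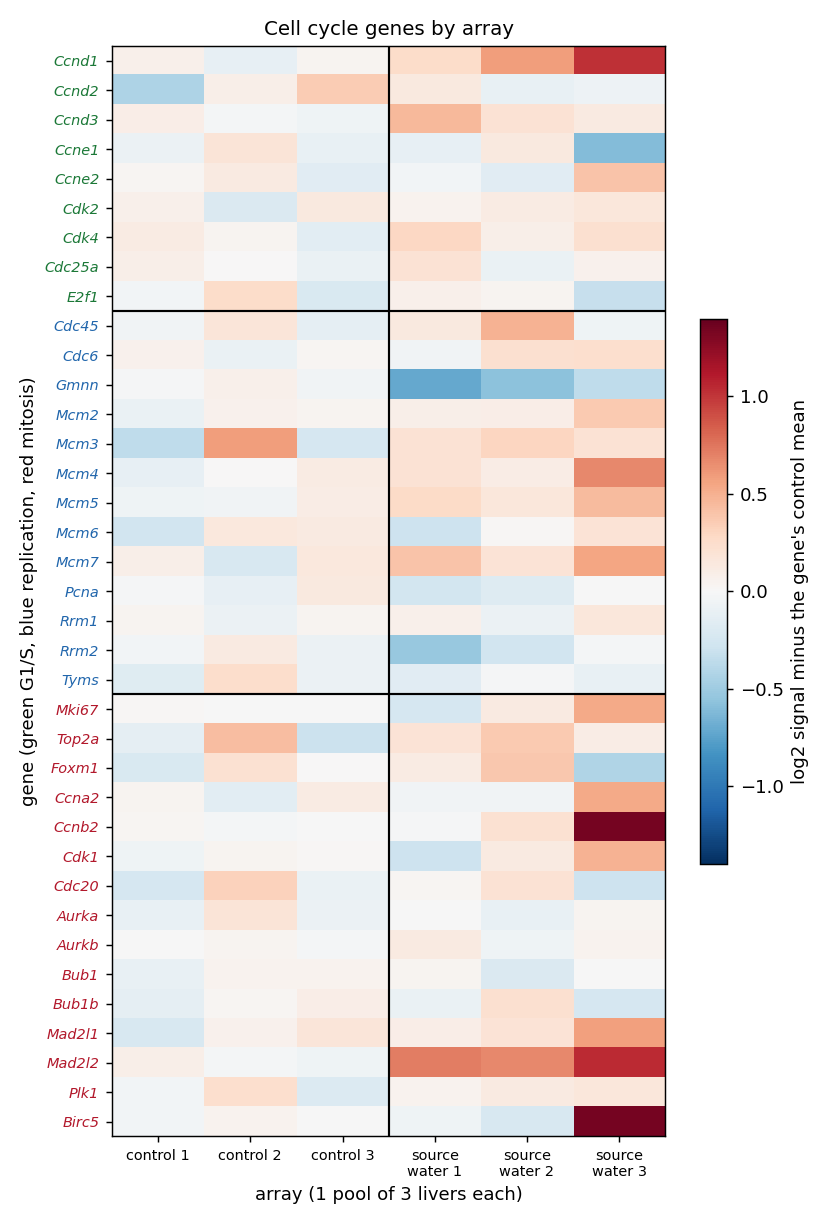
Log2 signal of each of the 37 genes (rows) in each of the 6 arrays (columns), less the gene's mean over the control arrays, red for higher and blue for lower. The column of source water replicate 3 holds the deepest reds, at Ccnb2 and Birc5, while the row of Gmnn is blue and that of Mad2l2 red in all source water arrays.

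Further genes of G2 phase and mitosis were examined from a list, of which 36 were measured. Of these, 1 was higher in source water replicate 2 than in every other array by at least 0.5, against 0.403% of all genes. In source water replicate 3, 5 (13.9%) were, against 0.508% of all genes. Cdca3, which encodes a trigger of mitotic entry, was at 6.15 in that pool and between 4.93 and 5.07 elsewhere. Ube2c, the ubiquitin-conjugating enzyme of the anaphase-promoting complex, was at 5.62 and between 4.34 and 4.67 elsewhere. Smc2 and Smc4, the core subunits of condensin, were at 5.88 and 7.04, against 4.54 to 5.04 and 6.10 to 6.46, and Cenpa, the centromeric histone gene, was at 6.4 against 5.50 to 5.84. These were single probe sets, and other probe sets of Cdca3 and Smc4 did not show a gap. The rest of the list, including Kif11, Kif20a, Cenpf and Ttk, had no such gap in source water replicate 3.

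**Figure D4:**
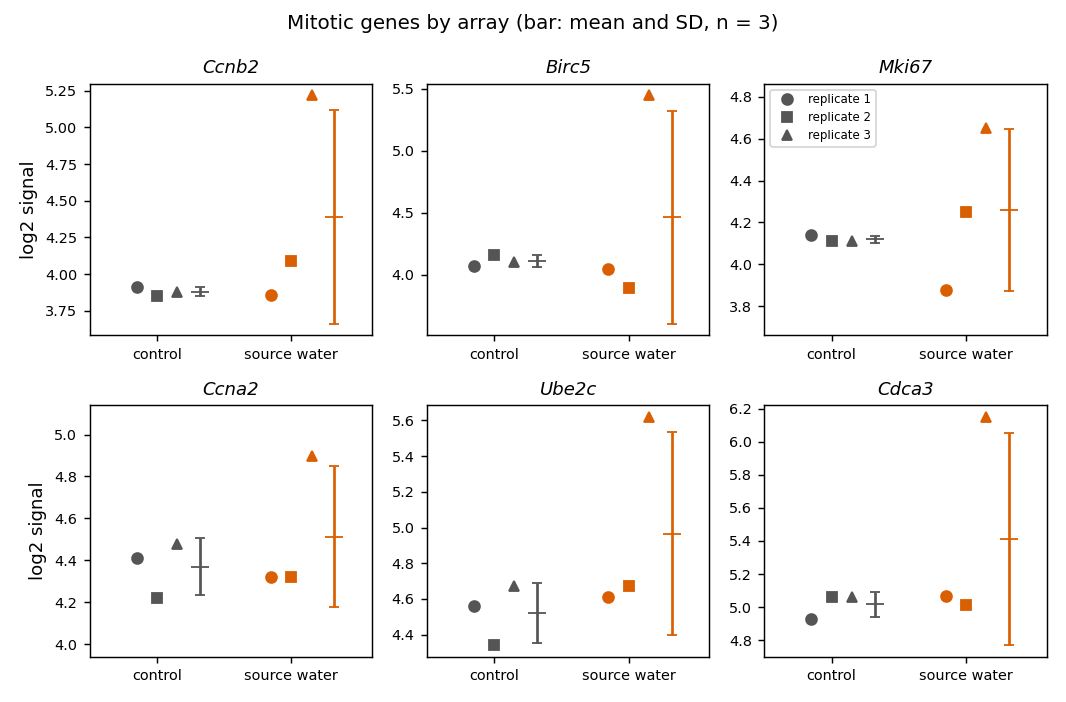
Log2 signal of 6 mitotic genes in each array, control in grey and source water in orange, with the mean and SD (n = 3) beside the points; the vertical scales differ between panels. In each panel source water replicate 3 (orange triangle) is the highest array, from 4.65 for Mki67 to 6.15 for Cdca3, and the other source water pools lie near the controls.

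Markers of other cells in the liver were read beside this pool, because dividing cells need not be hepatocytes. In source water replicate 3 the mean log2 signal of 9 neutrophil markers was 5.43, against 5.56 in control replicate 2 and 5.04 to 5.16 on the other arrays. Of these markers 3 of 9 were highest there, against 19.1% of all genes. Their median deviation from the 6-array mean was 0.026 there, beside a mean deviation of 0.198. The mean of 9 endothelial markers was 7.21 there against 6.65 to 7.14 elsewhere, and that of 9 stellate cell markers 7.05 against 6.67 to 6.97, each with 3 of 9 highest in that pool. The stellate cell mean was not particular to that pool. It was 6.91 and 6.97 in the other source water pools and 6.67 to 6.79 in the control pools. Means of 8 erythroid markers (5.74 against 5.80 to 5.97) and of 7 B cell markers (4.90 against 4.87 to 5.14) were not higher there. The 8 T and NK cell markers (4.94 against 4.83 to 5.07), 6 bile duct markers (4.64 against 4.55 to 4.74) and 10 Kupffer cell markers (9.65 against 9.0 to 9.82) lay within the range of the other arrays, as did 9 hepatocyte markers (13.99 against 13.81 to 14.05). All 10 Kupffer cell markers were nonetheless above their 6-array mean in source water replicate 3, with a mean deviation of 0.238. The same held for all 10 in control replicate 3 (0.41) and for 9 in source water replicate 2 (0.264). No marker is at 0 on this scale, so absence cannot be read from it. The part of these cells in the mitotic signal was not tested, and in whole liver RNA more dividing cells and more RNA per dividing cell cannot be told apart.

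Promoters were read because mitotic and replication genes are classically controlled through different elements. Mitotic genes often carry a cell cycle genes homology region (CHR, searched as TTTGAA) near CCAAT boxes (CCAAT), and replication genes carry E2F sites (searched as TTCGCGC or TTGGCGC). The RefSeq promoter windows, 250 bases before to 50 bases after a gene's start on GRCm38.p6, held 30 of the 38 genes, and both strands were searched. CHR letters were found in 8 of 13 mitotic, 2 of 11 replication and 0 of 6 G1/S genes, against 17.9% of all windows, and CHR with CCAAT letters in 8, 2 and 0, against 6.95%. E2F letters were found in 4 of 13 mitotic, 4 of 11 replication and 1 of 6 G1/S genes, against 3.89% of all windows. CCAAT letters alone were in 11, 9 and 3 of these genes, against 37.4%. A gene with several windows was counted where any held the letters.

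The promoters of Mcm7 and Mcm5 are shown for helicase genes whose groups did not overlap by the representative probe set. Those of Ccnb2 and Cdc20 are shown for mitotic genes with a probe set high in source water replicate 3. Both choices were made after the values were seen. The window of Birc5, the gene with the widest gap in that pool, held no CHR, CCAAT or E2F letters and is not shown, and the representative probe set of Cdc20 was lowest there. The windows shown for Ccnb2, Cdc20, Mcm7 and Mcm5 lie, in this order, at chr9:70421505-70421804 (minus strand), chr4:118437294-118437593 (minus), chr5:138171834-138172133 (minus) and chr8:75109259-75109558 (plus). They are written 5′ to 3′. Capitals mark CHR and CCAAT letters in Ccnb2 and Cdc20, and E2F and CCAAT letters in Mcm7 and Mcm5, on either strand.
Ccnb2: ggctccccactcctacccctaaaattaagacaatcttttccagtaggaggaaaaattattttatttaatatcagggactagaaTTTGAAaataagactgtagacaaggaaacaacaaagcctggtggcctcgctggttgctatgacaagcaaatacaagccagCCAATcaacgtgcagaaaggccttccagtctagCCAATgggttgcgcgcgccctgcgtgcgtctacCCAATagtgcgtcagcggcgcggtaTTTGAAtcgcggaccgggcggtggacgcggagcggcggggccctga
Cdc20: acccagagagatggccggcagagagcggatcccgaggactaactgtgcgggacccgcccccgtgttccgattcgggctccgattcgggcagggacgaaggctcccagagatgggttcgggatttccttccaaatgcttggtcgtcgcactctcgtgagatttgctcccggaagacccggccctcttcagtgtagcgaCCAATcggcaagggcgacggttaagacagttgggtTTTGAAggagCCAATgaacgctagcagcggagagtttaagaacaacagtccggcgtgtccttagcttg
Mcm7: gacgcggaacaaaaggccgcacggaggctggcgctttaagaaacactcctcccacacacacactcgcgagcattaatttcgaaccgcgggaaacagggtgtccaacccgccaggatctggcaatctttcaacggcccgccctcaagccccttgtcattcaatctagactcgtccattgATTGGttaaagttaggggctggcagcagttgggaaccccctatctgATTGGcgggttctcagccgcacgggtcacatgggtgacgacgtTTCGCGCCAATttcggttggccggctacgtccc
Mcm5: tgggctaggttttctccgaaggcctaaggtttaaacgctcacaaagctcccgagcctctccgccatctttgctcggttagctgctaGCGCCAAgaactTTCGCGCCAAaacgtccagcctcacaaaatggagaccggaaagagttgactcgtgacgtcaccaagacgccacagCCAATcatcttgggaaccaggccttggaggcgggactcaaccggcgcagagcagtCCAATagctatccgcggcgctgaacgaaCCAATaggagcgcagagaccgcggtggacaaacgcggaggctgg
In Ccnb2, CCAAT letters start 87, 54 and 21 bases before the gene's start, and TTTGAA lies 167 bases before it and again just after it. In Cdc20, CCAAT letters start 53 and 8 bases before the start with TTTGAA between them, at 18 bases. In Mcm7 and Mcm5, E2F matches on opposite strands overlap each other, and in Mcm7 a CCAAT match overlaps them as well. A second window of Mcm7 held no E2F letters. A match describes these letters and is not evidence of a bound site.

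Among genes that restrain the cycle or belong to the retinoblastoma and E2F families, 22 were measured, 12 higher and 10 lower with a median of 0.0373, and 4 had a limma p under 0.05, 3 higher and 1 lower, against 6.76% of all genes. In this and the further lists below, no gene passed after adjustment in the comparison as fitted. Gadd45b, a growth arrest and stress gene, was at 7.08, 6.92 and 7.10 in control and at 7.87, 7.86 and 8.03 in source water (limma adjusted p = 0.0516). That adjusted p was 0.0301 to 0.0481 under 4 alternative settings, but 0.0817 to 0.224 with an array left out and 0.297 by the unmoderated statistic. The groups were far apart in this probe set and in a second one, which differed by 1.17, while the remaining one differed by 0.11 with overlapping groups. Cdkn1a encodes p21, which inhibits cyclin-dependent kinases, and was at 5.86, 6.03 and 5.39 in control and at 6.81, 5.86 and 7.59 in source water. Its groups overlapped, and its highest pool was again source water replicate 3, without which the difference of 0.99 ± 0.39 (SE) was 0.57. Without that pool its p was 0.0968 (limma, unadjusted). The second probe set of Cdkn1a differed by 0.44 over all arrays, also with overlapping groups. E2f8, an atypical E2F that represses S phase genes, differed by 0.49 ± 0.16 (SE), and Cdkn2c, which encodes the Cdk4 inhibitor p18, by -0.37 ± 0.13.

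Among further G1/S genes, 11 were measured, 8 higher and 3 lower, and 2 (18.2%) had a limma p under 0.05, against 6.76% of all genes. Myc, which encodes a growth-promoting transcription factor, was at 7.75, 7.45 and 7.70 in control and at 6.85, 7.03 and 6.79 in source water. All source water pools were lower, by 0.75 on average (95% interval of the difference -1.03 to -0.46; limma adjusted p = 0.111). Dbf4, the activator of the replication kinase Cdc7, differed by 0.37 ± 0.13 (SE), and its other probe set by -0.08. Ccnd1 and Myc, both growth-responsive G1 genes, lay on opposite sides of the control pools.

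Among further replication and nucleotide genes, 36 were measured, 22 higher and 14 lower with a median of 0.0209, and 2 (5.56%) had a limma p under 0.05, a share below the 6.76% of all genes. Without source water replicate 3, 15 were higher and 21 lower. Tk1, the cytosolic thymidine kinase of S phase cells, was at 8.65, 9.01 and 8.82 in control and at 7.74, 8.17 and 8.02 in source water. The groups were separated in the same direction as those of Gmnn, and the difference was -0.85 ± 0.15 (SE; limma adjusted p = 0.122). Rfc3, a subunit of the clamp loader for Pcna, was at 5.87, 5.75 and 5.77 in control and at 6.28, 6.36 and 6.39 in source water, a difference of 0.55 ± 0.10 (SE; limma adjusted p = 0.15). Its second probe set differed by 0.25.

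Of the 36 measured genes of the further list of G2 phase and mitosis, 22 were higher and 14 lower with a median of 0.0545, and 1 (2.78%), Wee1, had a limma p under 0.05, a share below the 6.76% of all genes. Wee1 encodes the kinase that holds Cdk1 inactive in G2 phase. Its signal was 8.33, 8.26 and 8.27 in control and 6.75, 7.38 and 7.21 in source water. The control pools were almost equal, and every source water pool was lower by more than the range within either group (limma adjusted p = 0.0637). That adjusted p was 0.045 with limma-trend, 0.0974 to 0.268 with an array left out and 0.571 by the unmoderated statistic. Its dimmer second probe set differed by -0.33. Pkmyt1, which encodes a related kinase with the same target, differed by -0.04.

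**Figure D5:**
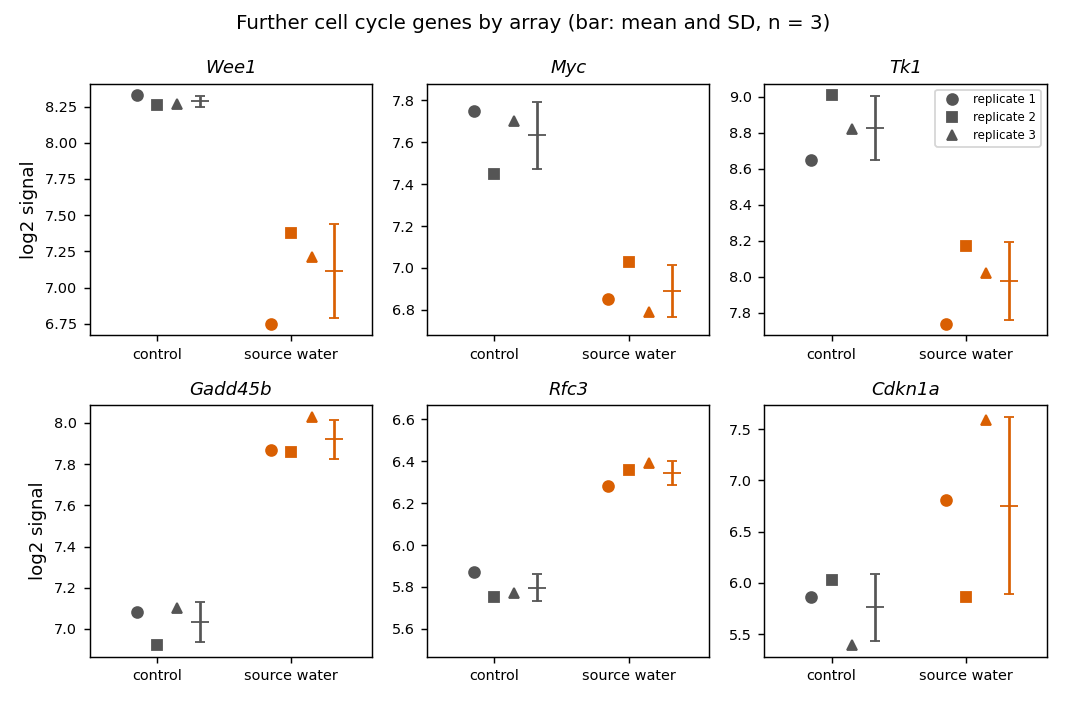
Log2 signal of 6 further cell cycle genes in each array, control in grey and source water in orange, with the mean and SD (n = 3) beside the points; the vertical scales differ between panels. Wee1, Myc and Tk1 are lower and Gadd45b and Rfc3 higher in every source water pool than in any control pool, while the groups of Cdkn1a overlap.

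In the authors' deposited table, 4 of the 37 genes had a p-value under 0.05, against 7.68% of all genes, and these 4 also had a limma p under 0.05. In the authors' deposited table the p-value was 0.0046 for Gmnn, 0.00298 for Mcm5 and 0.00496 for Mcm7, and Mad2l2 was the fourth, with a ratio of 1.75. The gene with a limma p under 0.05 that was not among them was Ccnd1, with 0.0943 in the authors' deposited table. Without source water replicate 3, 5 genes again had an unadjusted limma p under 0.05, against 6.29% of all genes. Of these, Ccnd1, Gmnn and Mad2l2 were shared with the comparison of all arrays, and Ccnd3 and Rrm2 took the place of Mcm5 and Mcm7.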

How the data were processed

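Liver RNA pools were hybridised to 1-colour Affymetrix mouse 3' expression arrays, 1 per pool. The authors deposited log2 signals for each probe set. RMA and Partek are named, without a version, in the submitters' processing notes, and how the background was corrected and arrays were normalized is not given in the sources used here. A table of the authors' own comparison was deposited with a p-value and a ratio per probe set and without the name of its test.

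Of 22690 probe sets, 64 controls were left out. Symbols came from the platform annotation, looked up by Entrez identifier in a GRCm38.p6 gene table. Each gene was represented by its probe set of highest mean, and 2 probe sets shared by cell cycle genes and other symbols were not used. Groups were compared with limma 3.58.1 in R 4.3.3 (no covariate, Benjamini-Hochberg over all probe sets), checked on simulated data. No label or header used here gives a batch. The genes and lists were chosen with earlier results of these data known. Array values were given for Mki67, Top2a and Pcna, for genes with an unadjusted p under 0.05 or non-overlapping groups, and for the largest and smallest difference of each role; further lists gave up to 6 genes with an unadjusted p under 0.05. Genes raised in 1 pool were added after their values were seen. Alternatives were a replicate block, other normalizations, variance models and probe set choices, and leaving out each array. Arrays have no read depth; precision is limited by their number.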

Additional observations from a re-analysis of the deposited data

How the results depend on the processing

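Values are limma results on the log2 scale, and all alternatives were planned. Against 9 probe sets past an adjusted p under 0.05, the replicate block gave 45, a repeated quantile normalization 30, limma-trend 35 and the unmoderated statistic 0 (1249 at an unadjusted p under 0.05). Leaving out each array gave 0 to 14 probe sets: 0 without control replicate 1 (1240 unadjusted), 14 without control 2, 2 without control 3 and 1 without source water 1. The count of 5 cell cycle genes with an unadjusted p under 0.05 was 3 by the unmoderated statistic, 7 with the replicate block and 4 to 6 with an array left out. With the 15 brighter genes alone, the median was 0.153 for 6 G1/S genes and -0.0512 for 4 replication genes, which reversed the sign of the latter. With an array left out, the replication median ran from 0.0615 to 0.209 and the mitotic median from 0.0625 to 0.235. Among named genes, Gadd45b passed with the replicate block (adjusted p = 0.0481), repeated quantile normalization (0.0301), limma-trend (0.045) and the mean of its probe sets (0.0432). Mad2l2 passed with repeated quantile normalization (0.0497) and Wee1 with limma-trend (0.045). Differences near 0 changed sign: Ccnd2 was 0.00555 with centred arrays and 0.0963 as the mean of its probe sets, Cdc20 was 0.0994 and Mcm6 0.0799 as such means. With an array left out, Ccnd2 ran from -0.23 to 0.16, Cdc20 from -0.14 to 0.14, Mcm6 from -0.17 to 0.10 and Mki67 from -0.0545 to 0.33. The cause was not tested. The labels name nothing shared by arrays of equal number, so the numbers were not taken as pairs. Correlations between such arrays of deviations from the group means were -0.0727, 0.278 and 0.169. Control replicate 1 deviated most like source water replicate 3 (0.429). Deviations cancel out within a group, which ties these correlations to each other, so they cannot exclude a pairing.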
